A study of Homo sapiens with 4 samples.

Results

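The ATF4-CHOP stress genes are 10 genes of the integrated stress response, 5 transcription factors (ATF4, ATF3, ATF5, DDIT3 and CEBPB) and 5 genes that such factors are known to switch on (DDIT4, SESN2, TRIB3, ASNS and CHAC1), out of 25702 genes counted in K562 cells. They were picked by name, by matching NCBI gene numbers to symbols, after their values in these libraries were known, and in particular after the 2 control libraries had been seen to differ in them. Their group difference is therefore given as a description. All 10 were found and all 10 passed the filter on low counts. K562 is an established line from chronic myeloid leukemia with erythroid features. Cells were transiently transfected either with the empty LeGO-iG2 vector (genotype "control") or with the same vector carrying RUNX1::ERG, a fusion that keeps the DNA-binding domains of both partner proteins. Both groups carried the vector with its green fluorescent protein and had no other treatment, and whole transcriptome sequencing (WTS) was performed on 2 biological replicates of each after poly(A) enrichment. The methods describe no sorting of transfected K562 cells before RNA extraction, so untransfected cells may be part of each library.

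In the integrated stress response, kinases such as PERK (EIF2AK3) and GCN2 (EIF2AK4) phosphorylate the translation initiation factor eIF2 when amino acids run short, when unfolded proteins gather in the endoplasmic reticulum or when heme is lacking. Most protein synthesis then slows, while the ATF4 messenger RNA is translated better, so that much of ATF4's control is not visible in its RNA level. ATF4 protein, a bZIP factor that binds DNA as a dimer, often with a C/EBP protein, raises genes for amino acid supply and a second tier of factors that includes ATF3, ATF5 and DDIT3, which encodes CHOP.

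The counts summed to between 59695387 and 82352144 per library, with empty vector replicate 1 the smallest. Between 66.7% and 68.9% of the counts from 1 to 10 were even numbers, as when each mate of a pair adds 1 count. ERG, part of the transfected fusion, was at 4 counts in both controls, at 80443 in RUNX1::ERG replicate 1 and at 27218 in RUNX1::ERG replicate 2. All 8 K562 markers examined, among them HBE1, HBG2 and GATA1, were above 125 CPM (counts per 1000000 counts of the library) in every library. Of markers of other cell types, the summed level in empty vector replicates 1 and 2 was 2.08 and 1.2 CPM for 3 B cell genes, 33.2 and 33.6 for 3 T cell genes, 7.72 and 10.1 for 4 monocyte genes, 76.1 and 78.4 for 4 epithelial genes and 6.21 and 6.46 for 3 fibroblast genes. In RUNX1::ERG replicates 1 and 2 the same sums were 1.65 and 1.17, 21.5 and 24, 23.1 and 20.9, 56.9 and 58.5, and 25.2 and 22.2 CPM, and the part of these genes in the results was not tested. Single genes made up most of 4 of these sums. EPCAM had 4186 to 5728 counts per library and CD3D 1693 to 2446. COL1A1 was at 249 and 255 counts in the controls and at 1858 and 1406 with RUNX1::ERG, and LYZ at 420, 698, 1523 and 1345. MS4A1 was at 0 in all libraries and KRT5, KRT7, CDH1, CD2 and FCN1 had at most 6 counts in any library.

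All 10 stress genes were highest in empty vector replicate 1 (26.3% of all tested genes were), whereas empty vector replicate 2 lay close to both RUNX1::ERG libraries. In normalized CPM, which are CPM after edgeR's TMM scaling, the 10 genes together summed to 2843 in empty vector replicate 1, 752 in empty vector replicate 2, 788 in RUNX1::ERG replicate 1 and 657 in RUNX1::ERG replicate 2. They took 0.287% of all counts in the first of these libraries and between 0.066% and 0.0806% in the other 3. In such bulk libraries, fewer cells with high expression and less RNA per cell cannot be told apart.

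**Figure D1:**
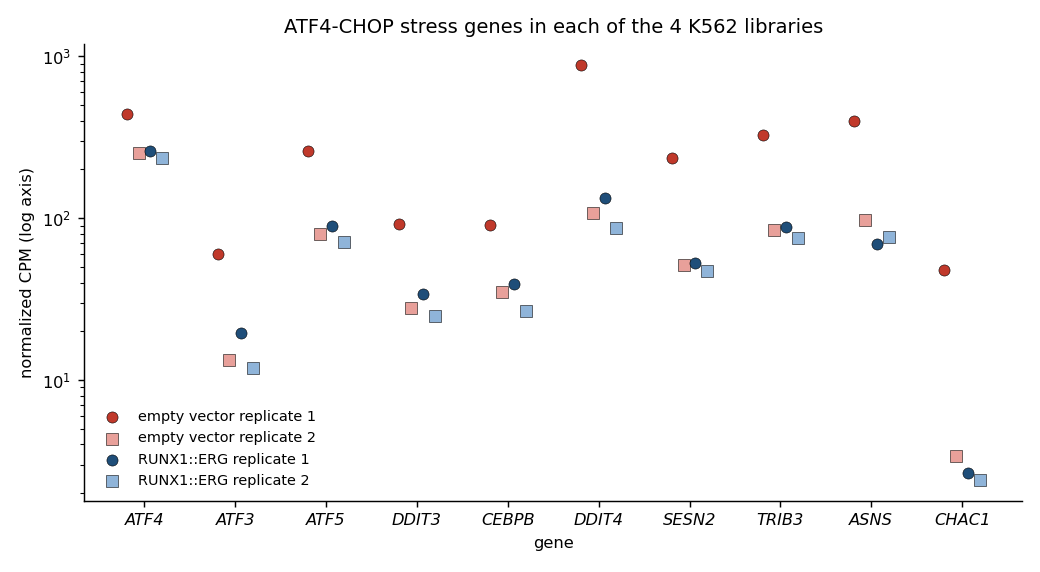
Normalized CPM, on a log axis, of the 10 stress genes in each of the 4 libraries, with 1 point per library and no averaging. Empty vector replicate 1 is the highest point for each gene, and the other 3 libraries lie closer to each other than to it. Those 3 run from 233.9 to 258 for ATF4, 2.41 to 3.39 for CHAC1, 11.9 to 19.6 for ATF3 and 87 to 134 for DDIT4.

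Among the factors, ATF4 (NCBI gene 468, chromosome 22 of GRCh37, 39915700 to 39918688) gives this gene set part of its name. It was at 443 normalized CPM in empty vector replicate 1 and 252 in empty vector replicate 2. In RUNX1::ERG replicates 1 and 2 it was at 258 and 233.9. The groups overlapped, since one RUNX1::ERG library was above the lower control. ATF4 was the least changed of the 10, with a 1.76-fold difference between the controls. DDIT3 (gene 1649, chromosome 12, 57910371 to 57915520) encodes CHOP, a dimerization partner of C/EBP proteins linked to cell death in prolonged stress. Its levels in the same order were 92.1, 27.7, 34.2 and 24.9 normalized CPM. Again the controls enclosed RUNX1::ERG replicate 1, and the other RUNX1::ERG library lay just under the lower control. ATF3 (gene 467, chromosome 1, 212738676 to 212794119), a factor induced early by many stresses, was at 60.1, 13.3, 19.6 and 11.9 normalized CPM. Of the 10 genes it differed most between the RUNX1::ERG libraries, by 1.64-fold, and differed by 4.52-fold between the controls.

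ATF5 (gene 22809, chromosome 19, 50431959 to 50437192), a close relative of ATF4 that is also translated better under stress, was at 259 normalized CPM in empty vector replicate 1 and at 79.8, 89.4 and 71.1 in empty vector replicate 2 and RUNX1::ERG replicates 1 and 2. CEBPB (gene 1051, chromosome 20, 48807367 to 48809205) encodes C/EBP beta, a partner of both ATF4 and CHOP. It was at 91.2 and 34.9 normalized CPM in the controls and at 39.3 and 26.8 with RUNX1::ERG. In both genes the second control fell between the RUNX1::ERG libraries.

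Strand use and the annotation used in counting are not given in the sources used here. Overlapping genes may thus add to or take from some of these values, which was not tested. The overlaps below come from GENCODE, and the annotation used in counting may differ from it. Exons of other genes cover 35.9% of the canonical DDIT3 transcript (MARS1 on the other strand and an unnamed gene model on the same one), 13.5% of ATF5 (NUP62 and IL4I1 on the other strand and MIR4751 on the same one) and 12.6% of CEBPB (CEBPB-AS1). MARS1, a methionyl-tRNA synthetase and itself a known ATF4 target, was at 459, 233, 214 and 216 normalized CPM in the order given above. For ASNS, a second GENCODE gene model on the same strand covers 99.5% of the transcript. No other gene's exons overlap the canonical transcripts of ATF4, ATF3, DDIT4, SESN2, TRIB3 and CHAC1.

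DDIT4 and SESN2 encode proteins that restrain mTORC1, the kinase complex that promotes growth and protein synthesis. DDIT4 (gene 54541, chromosome 10, 74033678 to 74035794), also called REDD1, was at 888 normalized CPM in empty vector replicate 1, 108 in empty vector replicate 2, 134 in RUNX1::ERG replicate 1 and 87 in RUNX1::ERG replicate 2. One control thus stood 8.19-fold above the other, and the other lay between the RUNX1::ERG libraries. DDIT4 made up 31.2% of the summed level of the 10 genes in empty vector replicate 1 and between 13.2% and 17% in the other libraries. SESN2 (gene 83667, chromosome 1, 28586029 to 28609002), which encodes a leucine-binding Sestrin, was at 236, 51.2, 52.9 and 46.9 normalized CPM. Its last 3 libraries lay within 1.13-fold of each other or less, apart from the first, which was 4.61-fold above the second control. TRIB3 (gene 57761, chromosome 20, 343479 to 378203), a pseudokinase induced by ATF4 and CHOP that acts back on the response, was at 327, 84.3, 88.3 and 75.9 normalized CPM. The same split held, with a 3.88-fold gap between the controls.

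In both enzyme genes the 2 RUNX1::ERG libraries were below both empty vector libraries, an order that 22.1% of all tested genes also had. ASNS (gene 440, chromosome 7, 97480989 to 97501854), asparagine synthetase, was at 400 and 97.2 normalized CPM in the controls and at 69 and 76.4 with RUNX1::ERG. Compared with the lower control alone, its level was 29% and 21.4% lower in RUNX1::ERG replicates 1 and 2. CHAC1 (gene 79094, chromosome 15, 41245160 to 41248710), an enzyme that breaks down glutathione, was at 47.6, 3.39, 2.67 and 2.41 normalized CPM. It showed the widest gap between the controls, 14.1-fold, and its RUNX1::ERG libraries were 21.3% and 29% below the lower control. These low levels rest on 239, 225 and 173 counts. Their exact 95% Poisson intervals were 2.97 to 3.85, 2.33 to 3.04 and 2.06 to 2.79 normalized CPM, so that the lower control overlapped RUNX1::ERG replicate 1 in counting error but not RUNX1::ERG replicate 2. Such intervals cover counting error only and are too narrow where both mates are counted. For ASNS, with at least 5491 counts in each library, the interval of the lower control, 94.9 to 99.6, lay above those of both RUNX1::ERG libraries, 67.3 to 70.8 and 74.4 to 78.4. By level alone, without these intervals, both RUNX1::ERG libraries were below both controls in 2 of the 10 genes. Among the 15394 genes tested 22.1% had this order, so the count was near that share.

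ATF4 dimers with C/EBP proteins bind a composite element, searched here as TGATGNAA on both strands in the 300 bases around each start site (250 before and 50 after) in RefSeq promoter sequences of GRCh38.p14. It occurred in 3 of the 10 genes and in 4.46% of the 27305 genes of that table. Per window, 3 of the 19 windows of the stress genes and 3.62% of all 35116 windows held it. All 3 sites found are shown. They lie at chr1:212565205-212565234 on the plus strand for ATF3, chr7:97872458-97872487 on the minus strand for ASNS and chr15:40953251-40953280 on the plus strand for CHAC1. Each is written 5′ to 3′ on the strand of its gene, with the match in capitals.
ATF3: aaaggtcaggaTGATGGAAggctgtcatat
ASNS: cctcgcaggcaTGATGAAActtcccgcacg
CHAC1: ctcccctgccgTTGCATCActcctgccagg
The matches begin at positions -191, -68 and -209 from the start site, and that of CHAC1 reads as TGATGNAA on the opposite strand. The cyclic AMP response element TGACGTCA and the ER stress element (CCAAT, 9 bases of any kind, then CCACG) were found in none of the 10 genes and in 2.25% and 0.0916% of all genes. For the DNA-binding domains that RUNX1::ERG keeps, the Runt core TGTGGT was found in none of the 10 (15.6% of all genes) and the Ets core CCGGAA in 4, DDIT3, SESN2, TRIB3 and ASNS (20.1% of all genes). A match is a string of letters, and these windows leave out elements farther away.

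Levels of different genes were compared per kilobase of the canonical transcript. On this scale ATF4 led in 3 libraries, at 178 normalized CPM per kilobase in empty vector replicate 2, 182 in RUNX1::ERG replicate 1 and 165 in RUNX1::ERG replicate 2, followed by DDIT4 at 62, 76.6 and 49.8. In empty vector replicate 1 the order of these genes was turned, with DDIT4 at 508 and ATF4 at 312. CHAC1 was last in those 3 libraries, between 1.58 and 2.23, and ninth of the 10 in empty vector replicate 1, where it reached 31.3 against 31 for ATF3, too close to separate. ASNS held rank 3 of 10 with the empty vector, at 168 and 40.8, and ranks 6 and 5 with RUNX1::ERG, at 28.9 and 32. ATF5, TRIB3 and DDIT3 were between 27.6 and 44.6 in the 3 lower libraries. ATF5 was the highest of them in each, while TRIB3 and DDIT3 changed places, at 37.5 and 37.8 in RUNX1::ERG replicate 1. SESN2 and CEBPB followed, and ATF3 was ninth in those libraries, between 6.15 and 10.1.

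The group comparison describes the difference between RUNX1::ERG and empty vector libraries in these genes, which were picked with their values known. Fitted over both libraries of each group with edgeR's quasi-likelihood test, none of the 10 passed an adjusted p of 0.05 in either direction, while 4.79% of all tested genes were called, 1.15% lower and 3.64% higher. At an unadjusted p under 0.05, 9 of the 10 were lower (7.26% of all genes), the exception being ATF4. DESeq2 and limma voom called none of the 10 lower (2.63% and 0.994% of all genes), nor did edgeR with library totals (0.669%) or with halved counts (1.22%). With DESeq2 size factors (1.38%) or a minimum of 10 counts in every library (1.25%), 2 of the 10 were called lower, ASNS and CHAC1. Without a filter, 10 of the 10 were (2.65%), and with a replicate block 4 were (4.23%). All 10 fitted log2 fold changes were below 0, as were 50.2% of those of all genes, with a median of -1.27 against 0 to 2 decimals for all genes. They ran from -0.50 (standard error 0.23) for ATF4 to -3.33 (0.84) for CHAC1. For the other factors they were -0.93 for CEBPB (0.36), -1.02 for DDIT3 (0.42), -1.08 for ATF5 (0.40) and -1.22 for ATF3 (0.52). For the other targets they were -1.32 for TRIB3 (0.45), -1.52 for SESN2 (0.49), -1.77 for ASNS (0.47) and -2.17 for DDIT4 (0.67). With 2 libraries against 2, an exact two-sided permutation test cannot give a p below 0.333, so p-values here rest on the spread that edgeR estimates over genes.

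These values depended on which control was used. With empty vector replicate 1 left out, the log2 fold changes of the 10 genes ran from -0.42 to 0.24 with a median of -0.04, and 0 of the 10 were called lower by edgeR (1.91% of all genes). ATF3, ATF5, DDIT3 and DDIT4 were then at 0.24, 0.0048, 0.090 and 0.024, and ASNS and CHAC1 were both at -0.42. With empty vector replicate 2 left out instead, the values ran from -4.23 for CHAC1 to -0.85 for ATF4, and 10 of the 10 were called lower (3.75% of all genes). Leaving out RUNX1::ERG replicate 2 gave 6 of the 10 (1.18% of all genes), namely ATF5, DDIT4, SESN2, TRIB3, ASNS and CHAC1, and leaving out RUNX1::ERG replicate 1 gave none (0.368%). In these fits the lone library of a group is assumed to vary like the libraries of the other group.

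**Figure D2:**
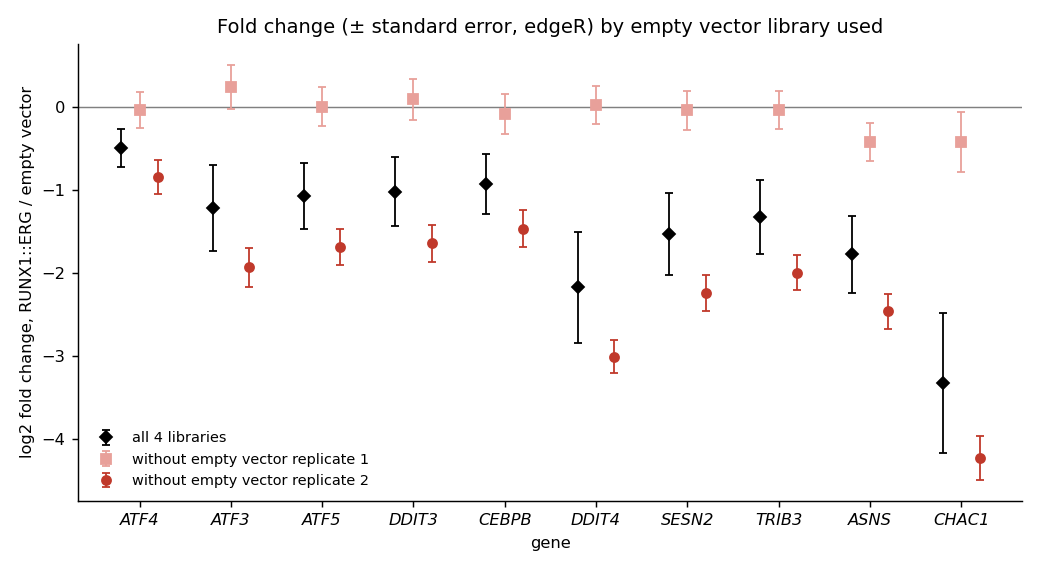
Log2 fold change of RUNX1::ERG over empty vector for each of the 10 stress genes, with bars of ± 1 standard error from edgeR, fitted with all 4 libraries, without empty vector replicate 1 and without empty vector replicate 2. Without replicate 1 the values lie between -0.42 and 0.24, and without replicate 2 between -4.23 and -0.85.

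Empty vector replicate 1 was at least 2-fold above empty vector replicate 2 in 9 of the 10 genes, all but ATF4, and in 7.61% of all tested genes. At 3-fold the counts were 8 of the 10 and 3.26%, and at any size 10 of the 10 and 52.3%. It was at least 2-fold above each of the other 3 libraries in the same number, 9 of the 10, against 1.34% of all genes. The median ratio between the controls was 4-fold over the 10 genes, and 1.97-fold over the 57 other target genes tested from the lists of further genes. The genes had been picked with this split known, so these counts describe the choice and are no independent evidence of it.

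A smaller difference ran the same way within the RUNX1::ERG group. RUNX1::ERG replicate 1, which had more of the ERG transcript, was above RUNX1::ERG replicate 2 in 9 of the 10 genes (50.4% of all genes), with ratios from 1.1 for ATF4 to 1.64 for ATF3, and ASNS was the exception at 0.904. Replicate 1 was thus above replicate 2 in both groups in 9 of the 10 (32.6% of all genes). No stress gene reached 2-fold there, against 4.47% of all genes. From high to low, 8 of the 10 genes followed the order empty vector replicate 1, RUNX1::ERG replicate 1, empty vector replicate 2, RUNX1::ERG replicate 2 (5.54% of all genes), and ASNS and CHAC1 did not. The labels do not say whether libraries with the same number were made together, and the part of the ERG level in this difference was not tested.

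Lists of further genes of the response were drawn up by name, with earlier results of these data known, and compared in the same fit, so their counts are a description. Of 61 other target genes of the response, on 4 of the lists, 57 were tested. Of the 57, 13 were called lower and none higher, against 1.15% and 3.64% of all tested genes. The median log2 fold change of the 57 was -0.66, and 53 of the 57 fitted values were below 0 (50.2% of all genes). Without empty vector replicate 1 the median was -0.26, with 5 called lower (PSAT1, CBS, SLC7A5, STC2 and TNFRSF10B) and 2 higher (GDF15 and VEGFA), against 1.91% and 5.77% of all genes in that fit. Without empty vector replicate 2 the median was -1.0, with 42 of 59 called lower (3.75% of all genes). Empty vector replicate 1 was at least 2-fold above empty vector replicate 2 in 28 of the 57, namely 8 of 13 enzymes, 6 of 10 transporters, 3 of 14 synthetase genes and 11 of 20 secreted, feedback and cell death targets, against 7.61% of all genes. Both RUNX1::ERG libraries were below both controls in 41 of the 57, and in 22.1% of all tested genes.

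**Figure D3:**
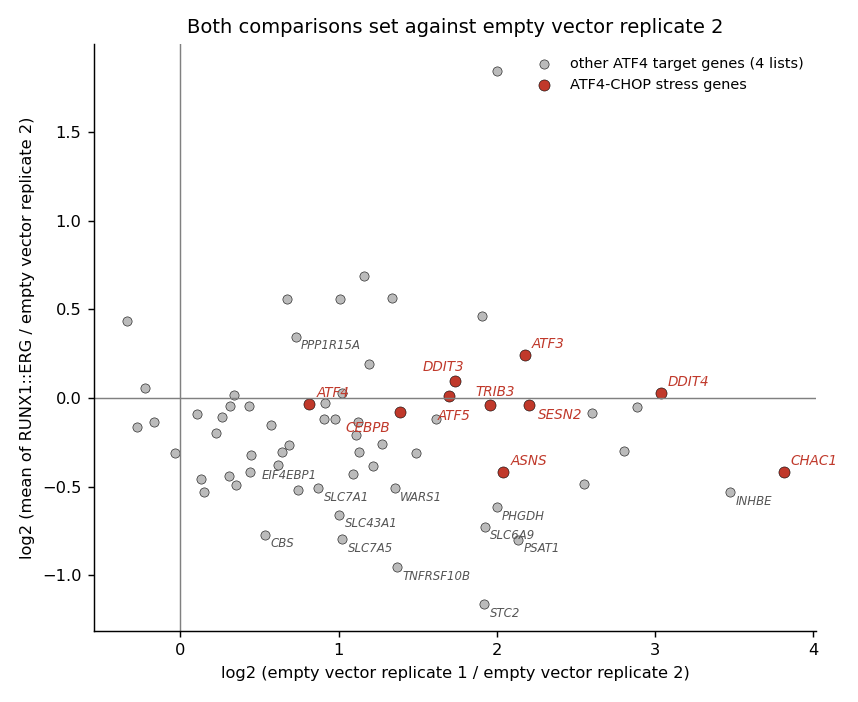
Each point is a gene, with the log2 ratio of the 2 empty vector libraries on the horizontal axis and the log2 ratio of the mean RUNX1::ERG level to empty vector replicate 2 on the vertical axis, in normalized CPM. The 10 stress genes spread widely along the horizontal axis and 8 of them lie close to 0 on the vertical one, while STC2, TNFRSF10B, PSAT1, SLC7A5 and CBS lie lower on it. Both axes share empty vector replicate 2, so the plot shows values and no relation between them.

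Of 13 enzymes of amino acid and one-carbon metabolism, 3 fell (1.15% of all tested genes did), a count that was 1 with library totals, with limma voom and without RUNX1::ERG replicate 1. The serine synthesis enzyme PSAT1 went from 217 and 49.4 to 25 and 31.8 normalized CPM (log2 fold change -2.23, standard error 0.50, edgeR adjusted p = 0.031). PHGDH, the first enzyme of that pathway, went from 104 and 25.9 to 17.1 and 16.7 (-1.94, standard error 0.47, adjusted p = 0.041). CBS, which makes cystathionine from homocysteine and serine, was at 574 and 397 with the empty vector and at 247 and 218 with RUNX1::ERG (-1.06, standard error 0.19, adjusted p = 0.01). Its controls differed by only 1.45-fold. Without empty vector replicate 1, PSAT1 and CBS were still called lower, at -0.80 and -0.78, and PHGDH was not, at -0.62.

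Amino acid transporters showed 5 falls among 10 tested genes, with a median log2 fold change of -0.83, against 1.15% of all tested genes called lower. The count was 1 with library totals, with limma voom and without RUNX1::ERG replicate 1. SLC6A9, SLC7A5, SLC43A1 and SLC7A1 were at -1.99, -1.40, -1.24 and -1.01, and SLC1A5, named here after its value was seen, was at -0.60. Without empty vector replicate 1 SLC6A9, SLC43A1, SLC7A1 and SLC1A5 were at -0.73, -0.66, -0.51 and -0.44. SLC7A5, the large neutral amino acid carrier, went from 366 and 180 to 97.7 and 109 normalized CPM (adjusted p = 0.016, edgeR), and it was the 1 transporter still called without empty vector replicate 1, at -0.80. Of 14 aminoacyl-tRNA synthetase and export genes, WARS1 alone was called lower (1.15% of all genes were, and in this list none was with library totals, with limma voom or without RUNX1::ERG replicate 1), from 468 and 183 to 125 and 132 normalized CPM (-1.34, standard error 0.33, adjusted p = 0.045, edgeR). The median of that list was -0.58, and -0.18 without empty vector replicate 1, where WARS1 was at -0.51. VARS1, also among the 14, was at only 1.71, 2, 2.44 and 1.71 normalized CPM, and the reason was not tested.

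Among 20 tested secreted, feedback and cell death targets, 4 fell (1.15% of all tested genes did), a count that was 2 with library totals and without RUNX1::ERG replicate 1, and 1 with limma voom. The secreted factor gene INHBE went from 58.6 and 5.28 to 3.52 and 3.78 normalized CPM, and was no longer called, at -0.53, without empty vector replicate 1. STC2, a secreted glycoprotein, went from 60.8 and 16.1 to 7.35 and 7 (-2.42, standard error 0.47, adjusted p = 0.015, edgeR). TNFRSF10B, the death receptor gene induced by CHOP, went from 81.1 and 31.4 to 16.8 and 15.5 (-1.80, standard error 0.35, adjusted p = 0.016, edgeR). Without that control, edgeR called both, at -1.17 and -0.96. EIF4EBP1, which encodes a repressor of cap-dependent translation, went from 150 and 89.8 to 68.9 and 56.4 (-0.94), and was at -0.52 and not called without it. PPP1R15A, which encodes GADD34, the phosphatase subunit that ends the response, was at 214, 129, 180 and 149 normalized CPM, with overlapping groups and a log2 fold change of -0.06. Of the 20 fitted values, 17 were below 0 (50.2% of all tested genes). GDF15, a secreted factor gene named after its values were seen, was at 230, 57.5, 264 and 150 normalized CPM in the same order. Its log2 fold change was 0.53, and 1.84 without empty vector replicate 1. VEGFA was at 296, 133, 266 and 161, with log2 fold changes of -0.0052 and 0.68 in these 2 fits.

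Upstream of ATF4, none of 20 genes for the eIF2 kinases, eIF2, eIF2B and their regulators was called (4.79% of all tested genes were, in either direction), a count near that share. Their median log2 fold change was -0.15, and none was 2-fold higher in empty vector replicate 1 than in empty vector replicate 2 (7.61% of all genes). EIF2AK3, the PERK kinase gene, was at 11.6 and 14 normalized CPM in the controls and at 19.8 and 20.5 with RUNX1::ERG (0.66, standard error 0.20, adjusted p = 0.098, edgeR). Both of its RUNX1::ERG libraries were above both controls, and the share of all genes in that order is not given here. In 9 of the 20 genes both RUNX1::ERG libraries were below both controls (22.1% of all genes). EIF2AK4, the GCN2 gene, was at 60.4, 67, 57.9 and 68.7. RNA levels do not report phosphorylation of eIF2, which was not measured in these files.

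None of the 31 tested bZIP partners and paralogs was called (4.79% of all genes), and their median was 0.17. Without empty vector replicate 1, edgeR called 3 of 33 higher, CEBPD, JUN and JUND, at 1.06, 0.80 and 1.19, where 5.77% of all genes were called higher. Of the 31, only CEBPG was at least 2-fold higher in empty vector replicate 1 than in replicate 2 (7.61% of all tested genes). CEBPG was at 124 against 42.5 normalized CPM, with 32.9 and 37.3 in the RUNX1::ERG libraries. The other Sestrin genes, SESN1 and SESN3, had fitted values of 0.51 and 0.83, and the paralogs TRIB1, TRIB2 and CHAC2 were at 0.07, -0.28 and 0.08, none of them past the threshold. In the ER chaperone list, made of ATF6 and XBP1 targets and their sensors, 0 of 24 genes were called with all 4 libraries (4.79% of all genes). The median of the list was -0.11. ERN1, the sensor IRE1 alpha, was the 1 gene of 24 with a 2-fold gap between the controls, at 23 and 9.33 normalized CPM. Among all tested genes 7.61% were at least 2-fold higher in empty vector replicate 1, and this count was not above that share. HSPA5, the main ER chaperone BiP, was at 640, 790, 468 and 588, with empty vector replicate 2 the highest. Its log2 fold change was -0.44 with all 4 libraries, and the fall was larger without empty vector replicate 1, at -0.59.

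**Figure D4:**
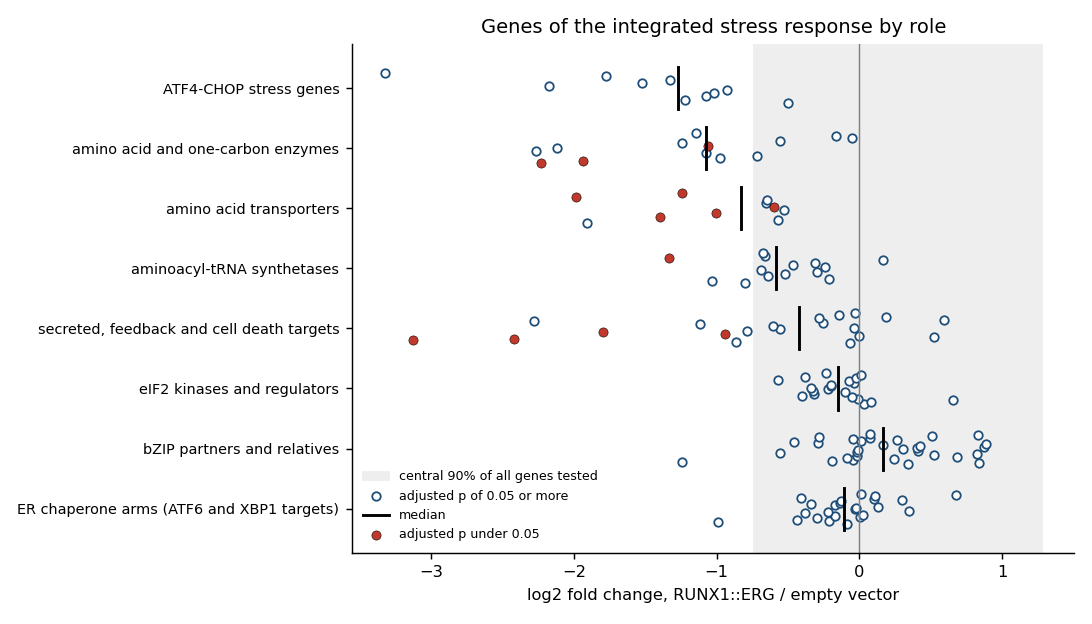
Log2 fold change of RUNX1::ERG over empty vector from edgeR for the 10 stress genes and the 7 lists, with 1 point per tested gene, filled where the adjusted p was under 0.05, a bar at each median, and the central 90% of all tested genes shaded. The medians run from -1.27 for the stress genes and -1.07 for amino acid and one-carbon enzymes to 0.17 for bZIP partners.

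Genes with the most similar pattern were sought by the root mean square difference from the median profile of the 10 stress genes, over 4 libraries and 9128 other genes with a mean of at least 10 normalized CPM, on the log2 scale with 1 added. TRIB3 was closest of the 10 to that median, at 0.04, and CHAC1 farthest, at 0.76. The nearest others were PCK2, a mitochondrial enzyme of phosphoenolpyruvate synthesis, at 0.17, and then FUT1, IL23A, PRDM9, NIBAN1, CEBPG, DLGAP1-AS2, GPT2, PABPC1L and CARS1, the last at 0.26. The names depended on the minimum level, since only 3 of these 10 were among the nearest with a minimum mean of 1 normalized CPM. PCK2 was at 136 normalized CPM in empty vector replicate 1 and at 44.4, 41.1 and 40.7 in the other 3 libraries. NIBAN1 was at 90.4, 22.2, 29.7 and 28.9, and GPT2 at 27.8, 9.88, 7.39 and 8.54. Of the 10, PCK2, CEBPG, GPT2 and CARS1 were on the lists above. With 4 libraries, the profile is set mainly by its high value in 1 control.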

How the data were processed

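WTS was performed on 4 K562 libraries, 2 with the empty vector and 2 with RUNX1::ERG. The deposited values are counts per NCBI gene number, not normalized, which the authors made from aligned reads. Their processing notes name HISAT2 2.2.1, featureCounts 2.0.1 and hg19, without stating the annotation or the strand setting. Symbols came from a RefSeq table of GRCh38.p14 (92.2% of 25702 genes matched), and positions and transcript lengths from GENCODE v44 on GRCh37.

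Counts were compared in R 4.3.3 with edgeR 4.0.16 (TMM, filterByExpr leaving 15394 genes, quasi-likelihood test, Benjamini-Hochberg adjustment over all genes tested, threshold 0.05). Standard errors are the log2 fold change divided by the square root of F. DESeq2 1.42.0, limma 3.58.1 voom, other scalings and filters, halved counts, a replicate block and each library left out were alternatives. Named genes were the 10 stress genes, up to 4 called genes per list with a mean of at least 10 CPM, the 10 nearest profiles, and ERG, PPP1R15A and EIF2AK3. Any other gene named was chosen after its values were seen. The genes and lists were chosen with earlier results of these data known. Scripts were tested on simulated data. A count of 0 allows up to 3 counts, or 0.0503 CPM in the smallest library. The replicates are described as biological, with no statement on separate cultures, so p-values measure the spread between these libraries.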

Additional observations from a re-analysis of the deposited data

How the results depend on the processing

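The log2 fold changes of the 10 stress genes kept their direction under every other scaling, filter and test. With a library left out, ATF3 ran from -1.93 to 0.24, ATF5 from -1.69 to 0.0048, DDIT3 from -1.64 to 0.090 and DDIT4 from -3.01 to 0.024, the sign turning without empty vector replicate 1. The number of the 10 called lower, 0 in the comparison reported, was 2 with DESeq2 size factors, 2 with at least 10 counts in every library, 10 without a filter and 4 with the replicate block, and 0 to 10 with a library left out. Over all genes, 737 calls (177 lower) became 1500 (538) without a filter, 1204 (405) with DESeq2 and 1733 (651) with the replicate block. Library totals left 103 lower. With a library left out there were 286 to 1336 calls, 58 to 602 of them lower.

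Calls of lower amino acid enzymes (3) became 1 with library totals, 5 with DESeq2 size factors, 11 without a filter, 6 with DESeq2, 1 with limma and 6 with the replicate block, and 1 to 11 with a library left out. Transporters (5) became 1 with library totals and limma, 9 without a filter, and 1 to 10 with a library left out. Synthetases (1) became 0 with library totals and limma, 8 without a filter, 4 with DESeq2 and 5 with the replicate block, and 0 to 9. Secreted and feedback targets (4) became 2 with library totals, 1 with limma and 9 without a filter, and 2 to 12. bZIP partners (0) became 1 without a filter, and 0 to 1. ER chaperone genes (0) became 1 without a filter, 1 with DESeq2 and 3 with the replicate block, and 0 to 1. The eIF2 genes (0) had 0 to 2 with a library left out. The causes were not tested.

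Same-numbered libraries deviated together over genes (r = 0.37), but the labels give a number only. The block called CEBPB, DDIT4, ASNS and CHAC1, at -0.80, -1.53, -1.44 and -2.43. The lowest count of any stress gene was 173, in CHAC1, whose counting intervals overlap between the lower control and RUNX1::ERG replicate 1.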
